A study of Caenorhabditis elegans with 12 samples.

Results

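The genes described here build and serve the sensory cilium of *Caenorhabditis elegans*. A list of 53 gene names was drawn up by protein complex, covering the BBSome, intraflagellar transport (IFT) complexes A and B, the ciliary kinesins, the dynein-2 motor, the transition zone, and a set of regulators and other cilium genes. A table row carried 50 of the 53 names, out of 46926 features in the table, and *bbs-7*, *ift-140* and *dyf-14* had no row under those names. The BBS7 and IFT140 orthologs of the worm are encoded by *osm-12* and *che-11*, which are both on the list. RNA was taken from whole worms of the wild-type strain N2 and sequenced after removal of ribosomal RNA. The worms had been fed 1 of 2 bacteria: *Escherichia coli* lacking *lpp*, which encodes the major outer membrane lipoprotein (Δ*lpp*, 6 libraries), or BW25113, the strain without that deletion (6 libraries). Both groups are the same worm genotype, so the bacterial deletion is the only labelled difference between them. How old the worms were when RNA was taken, and how many went into a library, is not given in the sources used here.

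In the hermaphrodite worm, cilia are found only on sensory neurons, where they form the endings that meet odours, salts, heat and touch. A cilium has no ribosomes, so every protein in it is carried in from the cell body. IFT particles travel out along the microtubule core on kinesin-2 motors and return on dynein-2, with complex B needed for the outward trip and complex A for the return. The BBSome, named after Bardet-Biedl syndrome, travels with these particles and handles membrane cargo, while the transition zone at the cilium base acts as a gate. Most of these genes carry an X-box, the promoter element bound by the RFX factor DAF-19. The names *che*, *osm*, *dyf* and *daf* record how mutants were first found, through faulty chemotaxis, osmotic avoidance, dye filling of sensory neurons or dauer formation.

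Library totals were 21146912 to 23563592 fragments in Δ*lpp*-fed worms and 20254465 to 24442434 in BW25113-fed worms. Levels are given as CPM, the count relative to the scaled library total, after TMM scaling, where 3 counts equal 0.111 to 0.121 CPM in the Δ*lpp* libraries and 0.138 to 0.185 CPM in the BW25113 libraries. A gene is written as having risen or fallen only if its adjusted p was under 0.05 and its log2 fold change over 1 in size (quasi-likelihood F test of edgeR, with p-values adjusted by Benjamini-Hochberg over 15266 tested genes). Fold changes are Δ*lpp* over BW25113 with the standard error, n = 6 libraries per group. The first principal component held 83.7% of the variance and separated the diets, and BW25113 replicate 1 stood apart from the other 5 BW25113 libraries on the second (45.7, against -15.2 to 3.91). Without that library 2293 of 15442 tested genes were called higher, against 1850 of 15266 with it. All p-values measure the spread between these libraries, and nothing in the labels says whether they came from separate cultures. In whole-worm RNA, fewer cells of a type and less RNA per cell cannot be told apart.

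Cilium genes were higher in Δ*lpp*-fed worms across most of the list. Of 50 genes with a row, 48 passed the filter on low counts, 34 of these rose and 0 fell, and the remaining 14 did not reach both thresholds. Over all tested genes 12.1% were called higher and 15.6% lower. The median log2 fold change was 1.42 over the 48 cilium genes (quartiles 0.91 and 1.74, range -0.63 to 2.70), beside 0.05 over all tested genes (quartiles -0.53 and 0.54). It was above 0 for 46 genes, above 1.5 for 20 and above 2 for 7. In 36 genes every Δ*lpp* library lay above every BW25113 library, in 1 gene every Δ*lpp* library lay below, and in 11 the groups overlapped. Over all tested genes 17.8% did not overlap and were higher, and 23.7% did not overlap and were lower.

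**Figure D1:**
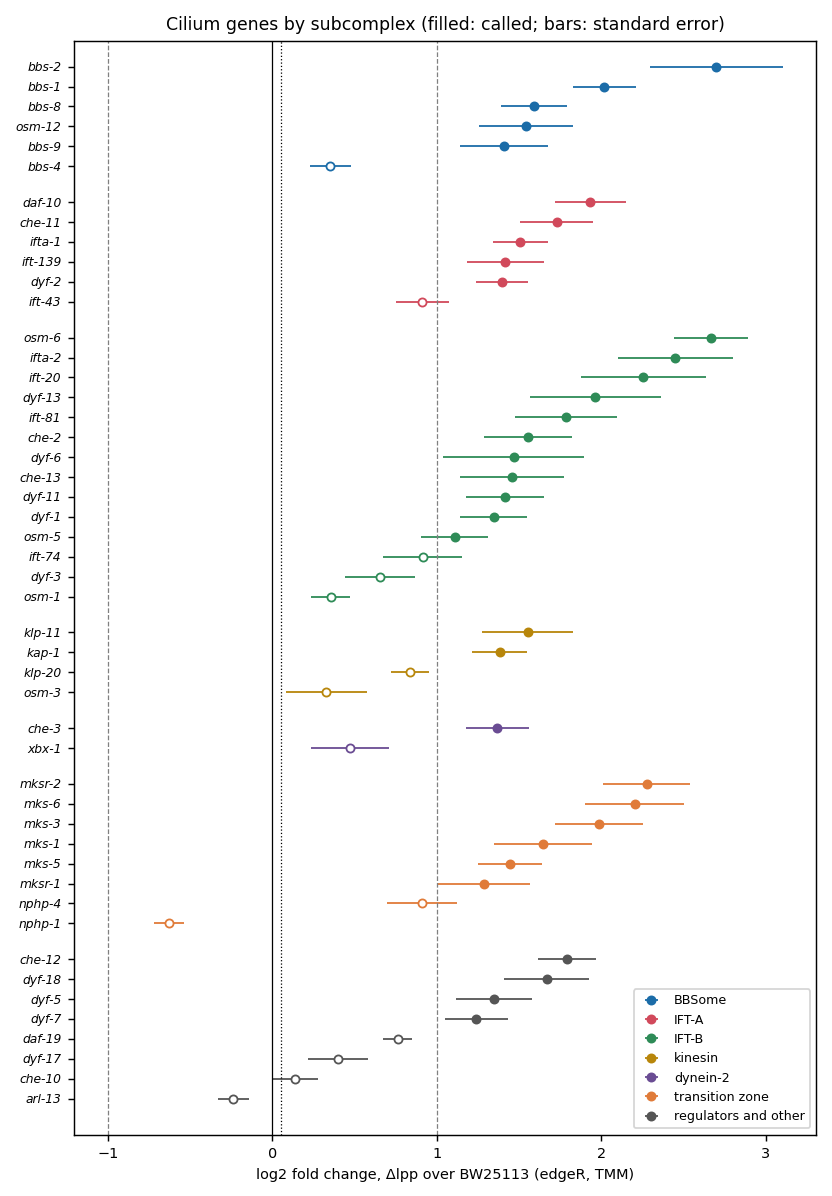
Log2 fold change of each tested cilium gene (horizontal axis, Δ*lpp* over BW25113), grouped and coloured by complex, with bars for the standard error (n = 6 libraries per group). Filled points are the 34 called genes, dashed lines mark a log2 fold change of 1 either way, and the dotted line is the median of all tested genes at 0.05. *nphp-1* and *arl-13* are the only points left of 0, and *arl-13* moved to the right of 0 by library size alone and on both TPM scales.

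Every complex held genes that rose. In the BBSome 5 of 6 tested genes rose, in IFT-A 5 of 6, in IFT-B 11 of 14, among kinesin subunits 2 of 4, in dynein-2 1 of 2, in the transition zone 6 of 8, and among regulators and other genes 4 of 8. The median log2 fold changes in the same order were 1.57, 1.46, 1.46, 1.11, 0.92, 1.54 and 1.0. Each complex had at least 1 tested gene that was not called, and no complex had a called gene in the other direction. Differences between complexes were not tested.

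Most of these transcripts were scarce. The 50 genes averaged 0.343 to 210 CPM over the 12 libraries, and 42 of them averaged under 5 CPM. Among those, 40 were tested and 33 rose, with a median log2 fold change of 1.49. Of all tested genes under 5 CPM, 23.6% were called higher and their median was 0.26. The other 8 genes averaged 5 CPM or more, and only 1 of them, *dyf-7*, rose. Their median log2 fold change was 0.35, and 5.72% of all tested genes at that level were called higher. The filter kept a gene with enough counts in 1 group alone, so scarce genes that were high in 1 group could enter on that group. Such genes included *ift-20*, *mksr-1* and *dyf-18*, whose BW25113 libraries had at most 3, 9 and 8 counts, and their p-values carry this limit. With at least 10 counts required in every library, 26 cilium genes remained, each kept its call, and 13 of them rose, beside 8.32% called higher and 9.5% lower of the 12400 genes then tested. On the deposited TPM scale with limma, 13 were called higher with log2(TPM + 1), where 17.3% of genes were called higher and 8.15% lower, and 41 with log2(TPM + 0.1), where 29.9% were called higher.

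**Figure D2:**
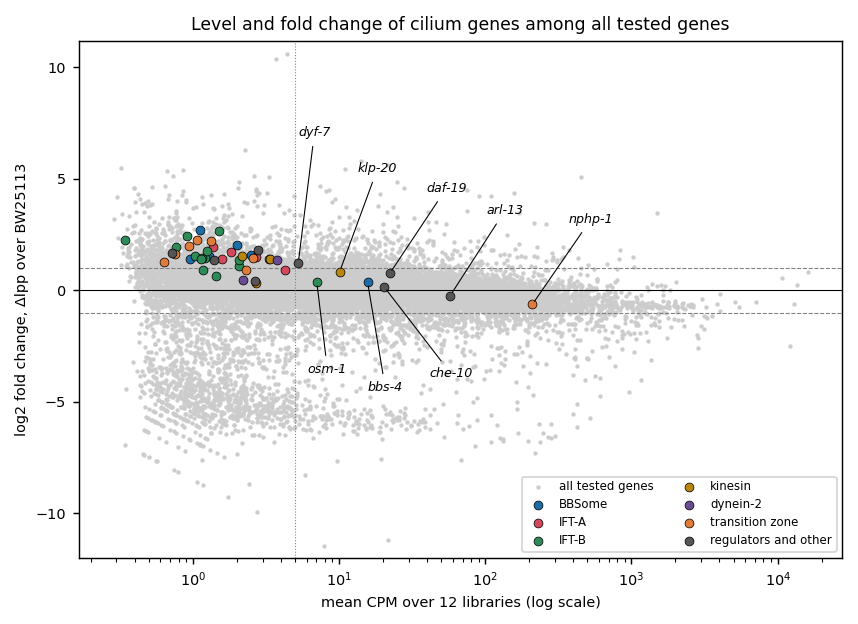
Mean level over 12 libraries in CPM (horizontal axis, log scale) against the log2 fold change (vertical axis, Δ*lpp* over BW25113), with all tested genes in grey and cilium genes coloured by complex. The dotted vertical line is at 5 CPM, where 33 of 40 tested cilium genes to its left rose and 1 of 8 to its right.

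Of the BBSome, 7 subunit genes had a row. *bbs-2* had the largest log2 fold change of any tested cilium gene. It had 1.22 to 3.35 CPM (median 1.80) in Δ*lpp*-fed worms, against 0.0531 to 0.830 CPM (median 0.213) in BW25113-fed worms, a log2 fold change of 2.70 ± 0.40 (adjusted p = 1.24e-05). BW25113 replicate 1 was the highest of its group at 0.830 CPM, and without that library the log2 fold change was 3.47. *bbs-1* had 2.88 to 3.85 CPM (median 3.08) in Δ*lpp*-fed worms, against 0.626 to 1.06 CPM (median 0.700) in BW25113-fed worms, a log2 fold change of 2.02 ± 0.19 (adjusted p = 3.76e-08). The Δ*lpp* libraries of both genes lay above all BW25113 libraries. *bbs-8*, which encodes a subunit made of tetratricopeptide repeats, had 2.43 to 4.56 CPM (median 3.97) in Δ*lpp*-fed worms, against 0.830 to 1.49 CPM (median 1.34) in BW25113-fed worms, a log2 fold change of 1.59 ± 0.20 (adjusted p = 1.46e-06). *bbs-9*, the gene of a scaffold subunit, had 0.935 to 1.67 CPM (median 1.52) in Δ*lpp*-fed worms, against 0.258 to 0.830 CPM (median 0.491) in BW25113-fed worms, a log2 fold change of 1.41 ± 0.27 (adjusted p = 0.00015). *osm-12*, the BBS7 ortholog, had 1.41 to 2.54 CPM (median 1.96) in Δ*lpp*-fed worms, against 0.185 to 0.991 CPM (median 0.737) in BW25113-fed worms, a log2 fold change of 1.54 ± 0.29 (adjusted p = 0.000123). None of these groups overlapped.

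The remaining pair of BBSome genes fell outside that pattern in level. *bbs-4* was the most abundant BBSome transcript, with 16.4 to 20.2 CPM (median 17.2) in Δ*lpp*-fed worms, against 10.4 to 17.8 CPM (median 14.1) in BW25113-fed worms. Its log2 fold change of 0.35 ± 0.13 was under the limit (adjusted p = 0.0205) and its groups overlapped. *bbs-5* did not pass the filter. Its counts were 19, 54, 20, 81, 11 and 9 in Δ*lpp*-fed worms, against 0 in 5 BW25113 libraries and 2 in the other. Summed over libraries this made 194 against 2 counts, a ratio of 70.3 after scaling, with an exact counting interval of 19.2 to 585 that covers counting error only. Fitted without the filter, edgeR's adjusted p for *bbs-5* was 3.31e-05.

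IFT-A carries the particles back to the cilium base, and its mutants gather material at the tip. All 6 of its genes were tested and in all 6 every Δ*lpp* library was above every BW25113 library. *daf-10*, the IFT122 ortholog, had 1.38 to 2.54 CPM (median 2.38) in Δ*lpp*-fed worms, against 0.493 to 0.661 CPM (median 0.542) in BW25113-fed worms, a log2 fold change of 1.93 ± 0.22 (adjusted p = 3.63e-07). *che-11*, the IFT140 ortholog, had 1.95 to 3.63 CPM (median 2.83) in Δ*lpp*-fed worms, against 0.618 to 1.06 CPM (median 0.865) in BW25113-fed worms, a log2 fold change of 1.73 ± 0.22 (adjusted p = 1.7e-06). *ifta-1*, which encodes the IFT121 ortholog, had 3.0 to 5.17 CPM (median 3.96) in Δ*lpp*-fed worms, against 1.29 to 1.54 CPM (median 1.38) in BW25113-fed worms, a log2 fold change of 1.51 ± 0.17 (adjusted p = 3.19e-07). These 3 genes and *dyf-2* encode the large WD40-repeat subunits. *dyf-2*, the IFT144 ortholog, had 4.24 to 5.21 CPM (median 4.82) in Δ*lpp*-fed worms, against 1.43 to 2.27 CPM (median 1.84) in BW25113-fed worms, a log2 fold change of 1.39 ± 0.16 (adjusted p = 3.38e-07). *ift-139*, for a subunit of tetratricopeptide repeats, had 1.99 to 3.19 CPM (median 2.10) in Δ*lpp*-fed worms, against 0.496 to 1.33 CPM (median 0.829) in BW25113-fed worms, a log2 fold change of 1.42 ± 0.23 (adjusted p = 3.56e-05). *ift-43*, for a small subunit, was the most abundant of the group with 5.09 to 6.86 CPM (median 5.35) in Δ*lpp*-fed worms, against 1.84 to 3.53 CPM (median 3.12) in BW25113-fed worms. At a log2 fold change of 0.91 ± 0.16 (adjusted p = 7.61e-05) it stayed just under the limit on the fold change, although its groups did not overlap.

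IFT-B is the larger complex and is needed to build the cilium at all. Its 14 genes were all tested, 11 rose and all 14 had an adjusted p under 0.05 in the higher direction. Of the whole list, 42 genes had such a p in the higher direction and 2 in the lower, beside 32.9% and 32.3% of all tested genes. *osm-6*, the IFT52 ortholog of the complex core, had 2.08 to 3.09 CPM (median 2.58) in Δ*lpp*-fed worms, against 0.258 to 0.555 CPM (median 0.423) in BW25113-fed worms, a log2 fold change of 2.67 ± 0.23 (adjusted p = 8.35e-09). That was the smallest adjusted p among the cilium genes. *ifta-2*, a small GTPase-like subunit related to IFT22, had 1.21 to 1.85 CPM (median 1.55) in Δ*lpp*-fed worms, against 0.0515 to 0.678 CPM (median 0.221) in BW25113-fed worms, a log2 fold change of 2.45 ± 0.35 (adjusted p = 6.91e-06). *ift-20*, a small subunit known in mammals from traffic between the Golgi and the cilium, had the lowest mean CPM of the cilium genes. Its exons are also the shortest, and at 0.741 CPM per kilobase of exon it lay at the list median of 0.742. It had 10 to 24 counts per Δ*lpp* library, against 1 to 3 per BW25113 library. The sums of 89 and 13 counts gave a scaled ratio of 4.96 (counting interval 2.76 to 9.69), and the fit gave a log2 fold change of 2.25 ± 0.38 (adjusted p = 4.41e-05). The gene passed the filter through its Δ*lpp* libraries alone, which limits what this p can show.

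Among the other core subunits, *ift-81*, which with IFT-74 binds tubulin in other organisms, had 1.21 to 2.58 CPM (median 2.13) in Δ*lpp*-fed worms, against 0.185 to 0.876 CPM (median 0.658) in BW25113-fed worms, a log2 fold change of 1.78 ± 0.31 (adjusted p = 6.38e-05). *osm-5*, the IFT88 ortholog, had 2.04 to 3.38 CPM (median 2.93) in Δ*lpp*-fed worms, against 0.928 to 2.04 CPM (median 1.22) in BW25113-fed worms, a log2 fold change of 1.11 ± 0.20 (adjusted p = 0.000119). *dyf-1*, the IFT70 ortholog, had 2.08 to 3.75 CPM (median 2.92) in Δ*lpp*-fed worms, against 0.740 to 1.52 CPM (median 1.13) in BW25113-fed worms, a log2 fold change of 1.35 ± 0.20 (adjusted p = 1.24e-05). The groups of these 3 genes did not overlap, and for *osm-5* the lowest Δ*lpp* library almost met the highest BW25113 library. *dyf-6*, the IFT46 ortholog, had 1.05 to 3.26 CPM (median 1.37) in Δ*lpp*-fed worms, against 0.110 to 1.43 CPM (median 0.605) in BW25113-fed worms, a log2 fold change of 1.47 ± 0.43 (adjusted p = 0.00605). Its groups overlapped, as did those of *dyf-13*. *dyf-13*, the IFT56 ortholog, had 0.673 to 1.71 CPM (median 1.21) in Δ*lpp*-fed worms, against 0.0461 to 0.690 CPM (median 0.232) in BW25113-fed worms, a log2 fold change of 1.96 ± 0.40 (adjusted p = 0.000303).

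The peripheral subunits connect the core to kinesin and cargo. *che-2*, the IFT80 ortholog, had 1.10 to 2.04 CPM (median 1.58) in Δ*lpp*-fed worms, against 0.247 to 0.876 CPM (median 0.497) in BW25113-fed worms, a log2 fold change of 1.55 ± 0.27 (adjusted p = 5.45e-05). *che-13*, the IFT57 ortholog, had 1.41 to 2.26 CPM (median 1.72) in Δ*lpp*-fed worms, against 0.258 to 1.34 CPM (median 0.592) in BW25113-fed worms, a log2 fold change of 1.46 ± 0.32 (adjusted p = 0.000566). *dyf-11*, the IFT54 ortholog, had 1.02 to 2.34 CPM (median 1.69) in Δ*lpp*-fed worms, against 0.441 to 0.784 CPM (median 0.618) in BW25113-fed worms, a log2 fold change of 1.41 ± 0.24 (adjusted p = 4.55e-05). In all 3 the Δ*lpp* libraries were the higher ones without overlap. The remaining 3 IFT-B genes overlapped between groups and were not called. *ift-74* had a log2 fold change of 0.91 ± 0.24 (adjusted p = 0.00277), *dyf-3*, the IFT38 ortholog, 0.65 ± 0.21 (adjusted p = 0.0116), and *osm-1*, the IFT172 ortholog, 0.35 ± 0.12 (adjusted p = 0.0141). Without Δ*lpp* replicate 5, BW25113 replicate 1 or BW25113 replicate 5, *ift-74* was called, at 1.01, 1.0 and 1.04. *osm-1* was the only IFT-B gene above 5 CPM, with 6.90 to 8.96 CPM (median 8.07) in Δ*lpp*-fed worms, against 5.53 to 6.96 CPM (median 6.21) in BW25113-fed worms.

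Kinesin-2 works in the worm as a pair of motors, the heterotrimeric kinesin-II and the homodimer OSM-3. *kap-1*, the accessory subunit of kinesin-II, had 3.98 to 6.30 CPM (median 4.74) in Δ*lpp*-fed worms, against 1.56 to 2.35 CPM (median 1.83) in BW25113-fed worms, a log2 fold change of 1.38 ± 0.17 (adjusted p = 8.47e-07). *klp-11*, a motor subunit of kinesin-II, had 2.10 to 4.53 CPM (median 3.40) in Δ*lpp*-fed worms, against 0.330 to 1.77 CPM (median 1.12) in BW25113-fed worms, a log2 fold change of 1.55 ± 0.28 (adjusted p = 8.05e-05). *klp-20*, the other motor subunit, had 11 to 16.4 CPM (median 12.4) in Δ*lpp*-fed worms, against 6.64 to 7.54 CPM (median 7.44) in BW25113-fed worms, and its log2 fold change of 0.84 ± 0.12 (adjusted p = 4.59e-06) lay under the limit with no overlap between groups. *osm-3*, the motor of the distal segment, had 2.41 to 3.47 CPM (median 3.09) in Δ*lpp*-fed worms, against 0.991 to 4.13 CPM (median 2.42) in BW25113-fed worms. Its log2 fold change was 0.33 ± 0.25 (adjusted p = 0.252), and the BW25113 libraries spanned the range of the Δ*lpp* libraries. The *klp-11* values need care because 97.1% of its exon sequence lies within the same-strand gene *F20C5.11*. The deposited TPM of *klp-11*, 0.23 to 30.0 over the 12 libraries, did not follow its counts, and with log2(TPM + 1) its adjusted p by limma was 0.418.

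Dynein-2 drives the return trip. *che-3*, the heavy chain gene, had 4.05 to 7.40 CPM (median 5.04) in Δ*lpp*-fed worms, against 1.49 to 2.44 CPM (median 2.27) in BW25113-fed worms, and a log2 fold change of 1.37 ± 0.19 (adjusted p = 5.41e-06), with no overlap. *xbx-1*, the light intermediate chain gene, had 1.93 to 3.43 CPM (median 2.52) in Δ*lpp*-fed worms, against 0.887 to 3.08 CPM (median 1.82) in BW25113-fed worms. Its groups overlapped, with a log2 fold change of 0.47 ± 0.24 (adjusted p = 0.0882).

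The transition zone is built from the MKS and NPHP modules, both named after human ciliopathies, Meckel syndrome and nephronophthisis. All 6 tested *mks* and *mksr* genes rose. *mksr-2*, *mksr-1* and *mks-1* encode proteins with a B9 domain. *mksr-2* had 1.41 to 2.38 CPM (median 1.75) in Δ*lpp*-fed worms, against 0.185 to 0.626 CPM (median 0.324) in BW25113-fed worms, a log2 fold change of 2.28 ± 0.26 (adjusted p = 5.39e-07). *mksr-1* had 0.748 to 1.17 CPM (median 0.859) in Δ*lpp*-fed worms, against 0.156 to 0.555 CPM (median 0.406) in BW25113-fed worms, a log2 fold change of 1.29 ± 0.28 (adjusted p = 0.000615). *mks-1* had 0.747 to 1.60 CPM (median 1.14) in Δ*lpp*-fed worms, against 0.155 to 0.678 CPM (median 0.327) in BW25113-fed worms, a log2 fold change of 1.64 ± 0.30 (adjusted p = 0.000101). All 3 were higher in each Δ*lpp* library. *mks-6*, the CC2D2A ortholog, had 1.26 to 3.75 CPM (median 2.23) in Δ*lpp*-fed worms, against 0.308 to 0.692 CPM (median 0.433) in BW25113-fed worms, a log2 fold change of 2.20 ± 0.30 (adjusted p = 4.25e-06). *mks-3*, which encodes meckelin, a membrane protein, had 1.15 to 1.75 CPM (median 1.62) in Δ*lpp*-fed worms, against 0.156 to 0.599 CPM (median 0.352) in BW25113-fed worms, a log2 fold change of 1.98 ± 0.27 (adjusted p = 3.63e-06). *mks-5*, the RPGRIP1L ortholog and scaffold on which both modules are assembled, had 3.14 to 4.26 CPM (median 3.83) in Δ*lpp*-fed worms, against 0.979 to 1.89 CPM (median 1.31) in BW25113-fed worms, a log2 fold change of 1.44 ± 0.20 (adjusted p = 3.89e-06). In these 3 genes too the groups did not overlap. *mks-2*, the TMEM216 ortholog, did not pass the filter. Its counts were 33, 34, 20, 23, 30 and 8 in Δ*lpp*-fed worms, against 5, 3, 0, 0, 4 and 1 in BW25113-fed worms. The sums of 148 and 13 gave a scaled ratio of 8.26 (counting interval 4.68 to 15.9), and edgeR's adjusted p without the filter was 1.46e-05.

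In the NPHP module no gene was called. *nphp-4* had 2.49 to 3.79 CPM (median 2.97) in Δ*lpp*-fed worms, against 0.991 to 2.40 CPM (median 1.39) in BW25113-fed worms, without overlap, and a log2 fold change of 0.91 ± 0.21 (adjusted p = 0.00119). It was called without BW25113 replicate 1 (1.10) or BW25113 replicate 5 (1.06). *nphp-1* was the only cilium gene whose Δ*lpp* libraries all lay below the BW25113 libraries. It had 138.7 to 195 CPM (median 163) in Δ*lpp*-fed worms, against 215 to 276 CPM (median 260) in BW25113-fed worms, a log2 fold change of -0.63 ± 0.09 (adjusted p = 9.96e-06). The size of this change was under the limit, and it was smaller under other scalings, with a log2 fold change of -0.18 by library size alone and -0.01 with log2(TPM + 1) (adjusted p = 0.860 by limma). *nphp-1* also had the highest CPM of the list.

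The regulators included the factor that binds the X-box, which most but not all of these genes carry. *daf-19* encodes the RFX transcription factor that switches on cilium genes. It had 26.8 to 29.4 CPM (median 27.7) in Δ*lpp*-fed worms, against 14.3 to 18.1 CPM (median 16.8) in BW25113-fed worms, a log2 fold change of 0.76 ± 0.09 (adjusted p = 5.59e-07). Its groups did not overlap, but the change was under the limit. It passed by library size alone, at 1.22. That scaling shifted the median of all tested genes by 0.45 and called 24.4% of them higher. The gene makes several isoforms, of which a shorter one serves cilia, and counts per gene do not tell them apart. *dyf-5*, a kinase related to MAK that controls cilium length, had 1.37 to 2.79 CPM (median 1.92) in Δ*lpp*-fed worms, against 0.551 to 1.10 CPM (median 0.731) in BW25113-fed worms, a log2 fold change of 1.35 ± 0.23 (adjusted p = 5.21e-05). *dyf-18*, a kinase related to CCRK that acts with it, had 0.896 to 1.48 CPM (median 0.976) in Δ*lpp*-fed worms, against 0.220 to 0.425 CPM (median 0.342) in BW25113-fed worms, a log2 fold change of 1.67 ± 0.26 (adjusted p = 1.7e-05). *che-12*, which encodes a HEAT-repeat protein of the ciliary microtubules, had 3.81 to 5.42 CPM (median 4.03) in Δ*lpp*-fed worms, against 0.956 to 1.61 CPM (median 1.25) in BW25113-fed worms, a log2 fold change of 1.79 ± 0.17 (adjusted p = 5.02e-08). None of these 3 overlapped.

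*dyf-7* encodes a zona pellucida domain protein that anchors the dendrite tip while the cell body moves away. It had 6.79 to 8.36 CPM (median 7.27) in Δ*lpp*-fed worms, against 2.37 to 5.53 CPM (median 2.54) in BW25113-fed worms, a log2 fold change of 1.24 ± 0.19 (adjusted p = 1.54e-05). BW25113 replicate 3 was the highest of its group, and the next highest had 3.27 CPM. *arl-13*, a small GTPase tied to the ciliary membrane, had 44.4 to 61.7 CPM (median 52.2) in Δ*lpp*-fed worms, against 56.2 to 69.9 CPM (median 61.9) in BW25113-fed worms. Its log2 fold change was -0.24 ± 0.09 (adjusted p = 0.0327), and it turned positive by library size alone (0.21) and with log2(TPM + 1) (0.35). *che-10*, which encodes the rootletin of the ciliary rootlet, had 13.6 to 26.5 CPM (median 23.2) in Δ*lpp*-fed worms, against 17.6 to 20.7 CPM (median 19.7) in BW25113-fed worms and a log2 fold change of 0.14 ± 0.14 (adjusted p = 0.382). *dyf-17*, known from a dye-filling mutant, had 2.45 to 3.60 CPM (median 3.02) in Δ*lpp*-fed worms, against 1.66 to 3.40 CPM (median 2.24) in BW25113-fed worms and a log2 fold change of 0.40 ± 0.18 (adjusted p = 0.0652). The groups of these last 3 genes overlapped.

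**Figure D3:**
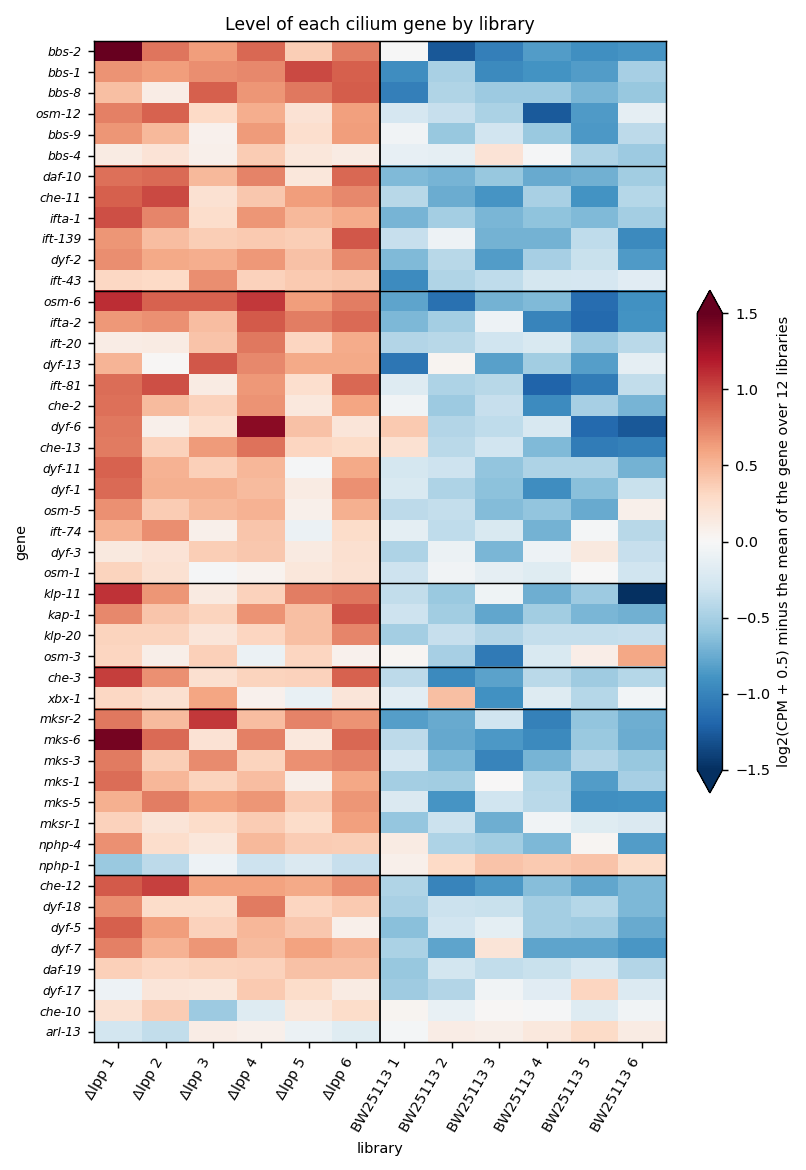
Level of each tested cilium gene in each library, as log2(CPM + 0.5) minus the mean of that gene over the 12 libraries (red above, blue below), with horizontal lines between complexes. The Δ*lpp* libraries (left) are red and the BW25113 libraries (right) blue for most rows, with *nphp-1* the other way round and *arl-13*, *che-10* and *osm-3* mixed.

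Levels of different genes were compared per kilobase of annotated exon. *nphp-1* averaged 99.2 CPM per kilobase and *arl-13* 45.6, followed by *bbs-4* with 9.98, *daf-19* with 7.10 and *ift-43* with 6.45. The lowest were *che-3* with 0.299 and *mks-3* with 0.322, and the median was 0.742. None of the 5 most abundant genes on this scale reached the limit on the fold change. The levels thus spread widely within a single complex, and *nphp-1* stood far above *nphp-4*, its module partner, which had 0.563.

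The genes lie on all 6 chromosomes, with 9 each on I, II and X, 8 each on III and IV, and 7 on V. Their annotated exons sum to 463 to 12568 bp, with a median of 2287 bp, *ift-20* being the shortest and *che-3* the longest. In the WBcel235 assembly *osm-6* spans 11924621 to 11927446 on chromosome V, *bbs-2* 7934033 to 7937749 on chromosome IV, *daf-19* 10157520 to 10169346 on chromosome II, and *nphp-1* 10648893 to 10652256 on chromosome II. Exons of 23 genes overlap an annotated gene on either strand, and 8 of them overlap one on the same strand. Whether counting used strand is not given in the sources used here, so reads in those stretches cannot be assigned with certainty. Of the 26 tested genes with no overlap 20 rose, and their median log2 fold change was 1.42. Most of the overlaps are short, *klp-11* being the exception. Those of *ift-20* with *spe-5* cover 14.7% of its exons, those of *dyf-5* with *ppfr-1* 7.45%, and those of *dyf-6* with *rme-4* 6.61%.

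Most cilium genes deviated the same way within a library. For each library the median over the 48 genes of log2(CPM + 0.5) relative to the gene's own mean was 0.34 to 0.69 in Δ*lpp*-fed worms and -0.54 to -0.39 in BW25113-fed worms. Δ*lpp* replicate 1 was the highest Δ*lpp* library for 17 genes, and replicates 5 and 3 were the lowest for 16 and 15. BW25113 replicate 1 was the highest of its group for 17 genes and the lowest for 10. No library of either group crossed to the other side in this median.

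The summed TPM of the cilium genes was 144 to 185 in Δ*lpp*-fed worms (median 162) and 74.5 to 94.5 in BW25113-fed worms (median 89.5). *nphp-1* and *arl-13* alone took 27.8 to 37.9% of that sum in Δ*lpp*-fed worms and 48.8 to 64% in BW25113-fed worms. Of the whole sum, IFT-B held 10.3 to 13.6% in Δ*lpp*-fed worms and 4.29 to 6.24% in BW25113-fed worms. IFT-A held 8.87 to 11.5% in Δ*lpp*-fed worms and 4.57 to 7.32% in BW25113-fed worms, and the BBSome 7.86 to 9.34% in Δ*lpp*-fed worms and 4.26 to 6.83% in BW25113-fed worms. These 3 complexes thus took a larger share in every Δ*lpp* library than in any BW25113 library. The transition zone, which includes *nphp-1*, went the other way without overlap, with 24 to 31.1% in Δ*lpp*-fed worms and 34.9 to 45.7% in BW25113-fed worms. The shares of the kinesins, dynein-2 and the regulators overlapped between groups. Leaving out *nphp-1* and *arl-13* was chosen after their values were seen. They are the only tested cilium genes with a negative log2 fold change, so the choice itself moves what is left towards Δ*lpp*. Of the sum without them the transition zone held 8.67 to 15.7% in Δ*lpp*-fed worms and 3.54 to 8.37% in BW25113-fed worms, and the shares of the BBSome and IFT-A then overlapped. The sums hold the unsteady TPM of *klp-11*. They also carry a lean of the deposited TPM towards Δ*lpp*-fed worms. With log2(TPM + 1) by limma, 17.3% of all tested genes were called higher and 8.15% lower. Even the pharynx list, with 0 of 7 called, summed to 324 to 444 TPM in Δ*lpp*-fed worms and 175 to 250 TPM in BW25113-fed worms.

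Cilia belong to neurons, so the list was set beside 20 genes that most neurons express, such as synaptic vesicle and release genes. All 20 were tested, 4 rose and 0 fell, with a median log2 fold change of 0.66, and 11 did not overlap and were higher. Over all tested genes 12.1% were called higher and 17.8% did not overlap and were higher. Most of the 20 averaged 5 CPM or more, and at that level 5.72% of all tested genes were called higher. The 4 were *cla-1*, an active zone gene (log2 fold change 1.61), *snt-1*, which encodes synaptotagmin (1.23), *ric-19* of dense-core vesicles (1.12) and *rab-3* of synaptic vesicles (1.01). The summed TPM of all 20 was 650 to 782 in Δ*lpp*-fed worms and 302 to 367 in BW25113-fed worms. These sums carry the same lean of the deposited TPM. The ratio of summed cilium TPM to summed pan-neuronal TPM was 0.202 to 0.261 in Δ*lpp*-fed worms and 0.212 to 0.283 in BW25113-fed worms, and the groups overlapped. From summed counts the ratio was lower in Δ*lpp*-fed worms without overlap, at 0.355 to 0.425, against 0.502 to 0.731 in BW25113-fed worms. It was 0.196 to 0.228 in Δ*lpp*-fed worms and 0.208 to 0.273 in BW25113-fed worms when *klp-11* was left out of the TPM sum, again with overlap. The direction of the ratio rested on *nphp-1* and *arl-13*, without which it turned, and no difference between the cilium and the pan-neuronal list is read from it.

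Other genes of the ciliated neurons followed. Of 28 further genes of the cilium, 25 were tested, 17 rose and 0 fell, with a median log2 fold change of 1.44. Over all tested genes 12.1% were called higher, and 23.6% of those under 5 CPM, where most of the 25 lay. *ccep-290*, the CEP290 ortholog of the transition zone, had the largest change at 2.71, and *tmem-231*, an MKS module gene, 2.30. The smallest among those called were *cdkl-1*, a ciliary kinase, at 1.13 and *xbx-3* at 1.20. *tctn-1*, the tectonic gene, was chosen after its values were seen. It had 268 to 452 CPM (median 363) in Δ*lpp*-fed worms, against 452 to 648 CPM (median 570) in BW25113-fed worms, and a log2 fold change of -0.65 that was not called. The highest Δ*lpp* library lay just above the lowest BW25113 library, so the groups overlapped.

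Of 29 genes for sensory signalling, 21 were tested, 12 rose and 0 fell, with a median of 1.17. This count and that of the next list stand beside 12.1% of all tested genes called higher, and 23.6% of those under 5 CPM. *daf-11*, a receptor-type guanylate cyclase of chemosensory cilia, had a log2 fold change of 2.49, and *gcy-8*, a guanylate cyclase of the thermosensory AFD neuron, 1.93. The smallest among those called were *gcy-18*, also of AFD, at 1.06 and *gcy-35*, a soluble guanylate cyclase of oxygen-sensing neurons, at 1.17. *str-2*, an odorant receptor gene expressed in a single AWC neuron, had no count in any library. Of 12 genes marking male sensory and IL2 cilia, 7 were tested, 5 rose and 0 fell, with a median of 1.14. *klp-6*, a kinesin of those neurons, had a log2 fold change of 1.79, and *tba-6*, their alpha tubulin, 1.60. *asic-2* and *cwp-5* were the smallest called at 1.14 each. *lov-1*, the polycystin of male neurons, had 0 to 3 counts in Δ*lpp*-fed worms and none in BW25113-fed worms, and *cwp-3* had at most 1 count in any library.

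**Figure D4:**
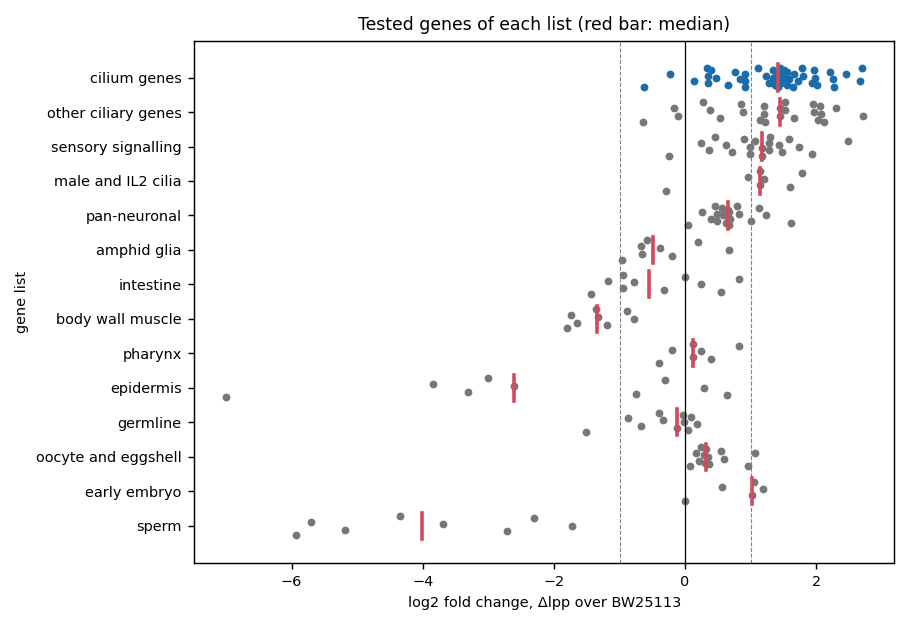
Log2 fold change (horizontal axis, Δ*lpp* over BW25113) of each tested gene of the cilium list (blue) and of 13 other lists (grey), with a red bar at the median of each list and dashed lines at 1 either way. The cilium, other ciliary, sensory and male and IL2 lists have medians of 1.42, 1.44, 1.17 and 1.14, and the pan-neuronal list 0.66. The lists differ in level, so these medians are not matched. Most pan-neuronal genes averaged 5 CPM or more, and the 8 cilium genes at that level had a median of 0.35.

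The libraries also differed in transcripts of other tissues, whose part in the cilium values was not tested. The counts below stand beside 15.6% of all tested genes called lower and 12.1% called higher. Of 8 amphid glia genes, which mark the cells wrapping the ciliated endings, 0 were called, with a median of -0.49. Of 8 body wall muscle genes 6 fell (median -1.34), of 9 epidermis genes 5 fell (median -2.60), and of 10 intestine genes 2 fell (median -0.56). The intestine share is near that of any gene, and those of the germline and oocyte lists are under it. The pharynx list had 0 of 7 called (median 0.13), the germline list 1 of 11 lower (median -0.12), and the early embryo list 3 of 5 higher (median 1.02). The groups of those early embryo genes overlapped. All 8 tested sperm genes fell (median -4.02). Their summed TPM was 5.53 to 7.16 in Δ*lpp*-fed worms and 81.2 to 105 in BW25113-fed worms. Oocyte and eggshell genes summed to 4715 to 6278 TPM in Δ*lpp*-fed worms and 1626 to 2923 TPM in BW25113-fed worms, where 1 of 13 rose (median 0.32). Such sums carry the lean of the deposited TPM towards Δ*lpp*-fed worms. With single libraries left out, the early embryo list had 1 called (without Δ*lpp* replicate 6, BW25113 replicate 5 or BW25113 replicate 6), the oocyte list up to 2 and the amphid glia list up to 1 lower.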

How the data were processed

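RNA from whole N2 worms was sequenced in 12 libraries (6 Δ*lpp*, 6 BW25113, grouped by their labels). According to the methods and the submitters' processing notes, the authors cleaned reads (Seqtk), mapped them to WBcel235 (HISAT2), obtained a fragment count for each gene (Stringtie) and derived TPM (RNAnorm). Versions, annotation and strand use are not given in the sources used here. The deposited estimated counts (8.97% of values not whole) were rounded, and the deposited TPM values served for sums within libraries and for the log-scale alternatives. Totals of 20254465 to 24442434 counts set the depth, and 3 counts equal at most 0.185 CPM. A pair of columns of the authors' group means was not used.

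Genes passing filterByExpr (minimum count 10, minimum total 15) were tested with edgeR 4.0.16 (R 4.3.3), using TMM scaling, a robust quasi-likelihood fit without covariates and Benjamini-Hochberg adjustment over 15266 genes. The code was tested on simulated data. Standard errors follow from the F statistic. Alternatives were DESeq2 1.42.0, other scalings and filters, limma 3.58.1 on log2(TPM + 1) and log2(TPM + 0.1), a replicate block, and each library left out. CPM per kilobase used exon lengths from Ensembl's WBcel235 gene models, joined on gene ID. Replicates of a group differed by more than sampling noise (chi-square per degree of freedom 4.40 to 70.5). Values are given for each called gene, for *daf-19* and for genes against the majority, and genes of other lists are named for the 2 highest and lowest called or when near 0. The cilium list, the other lists and these choices were made with earlier results of these data known, so no list was tested.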

Additional observations from a re-analysis of the deposited data

Results flagged for a closer look

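Dixon's criterion was applied to groups of 6 libraries, for the CPM of 50 genes and 2 forms of the ratio of cilium to pan-neuronal TPM in each diet. In 5 groups a single library lay far from the rest. Chance alone gives about 1 in 20, so over all these groups the number of flags was no more than chance would give. The flags are listed for description only, and none is read as a finding. In *bbs-2*, Δ*lpp* replicate 1 had 3.35 CPM, with 1.22 to 1.93 CPM in the other 5 Δ*lpp* libraries. In the same gene BW25113 replicate 1 had 0.830 CPM, with 0.0531 to 0.247 CPM in the other 5 BW25113 libraries. In *ift-43*, Δ*lpp* replicate 3 had 6.86 CPM, with 5.09 to 5.53 CPM in the others of its group. In *dyf-7*, BW25113 replicate 3 had 5.53 CPM, with 2.37 to 3.27 CPM in the others of its group. In *bbs-5*, BW25113 replicate 6 had 0.110 CPM from 2 counts, with 0 counts in the other 5 BW25113 libraries. With all the others at 0, any count in a single library would meet the criterion, so this flag carries no weight.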

How the results depend on the processing

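The 34 cilium genes called higher were also 34 with DESeq2 and with the replicate number as a block, where every one of the 48 tested genes kept its call and direction. Same-numbered libraries deviated together little, except for replicate 1 (correlation 0.41, against -0.24 to 0.13 for the other numbers). Of the 12 libraries, 2 correlated best with their own number. The labels do not say whether a number marks a shared batch, and the main fit used no pairing. With single libraries left out, 34 to 38 genes were called higher and the median log2 fold change was 1.36 to 1.52. By complex the counts were then 5 to 6 for the BBSome, 5 for IFT-A, 11 to 12 for IFT-B and 6 to 8 for the transition zone. Leaving a library out loosened the filter (15442 genes tested without BW25113 replicate 1). The higher counts therefore include *bbs-5* and *mks-2*, which the main fit did not test. With 10 counts required in every library the count was 13, the median 1.04, and the complexes held 2 (BBSome), 3 (IFT-A), 2 (IFT-B), 1 (kinesin) and 1 (transition zone), since fewer genes were tested. With log2(TPM + 1), which compresses low values, the count was 13 and the median 0.69 (all tested genes 0.51), with 2 BBSome, 1 IFT-A, 3 IFT-B, 0 dynein-2 and 2 transition zone genes. With log2(TPM + 0.1) the median was 1.67 (all tested genes 0.64) and 2 dynein-2 genes were called. Upper quartile scaling gave a median of 1.51 and library size alone 1.87, the last with a shift of 0.45 in the median of all genes and 24.4% of genes called higher. *arl-13* changed sign by library size alone (0.21), with log2(TPM + 1) (0.35) and with log2(TPM + 0.1) (0.37). Over all alternatives 934 of 986 results for single genes kept call and direction, a total made up largely of the fits with a library left out. Of the 48 tested genes, 46 kept both under every left-out library, but only 15 under every alternative. With log2(TPM + 1) 20 of the 48 kept both. After seeing the data, leaving out genes that overlap another on either strand gave 20 called and an unmoved median. The ratio of Δ*lpp* to BW25113 means of the cilium to pan-neuronal quotient was 0.919, with 0.893 to 0.945 over left-out libraries, 0.687 from summed counts (groups without overlap), 0.941 without *klp-11*, 1.40 without *nphp-1* and *arl-13*, and 1.60 without those and *klp-11* (groups without overlap). The last 2 values follow in part from removing the only cilium genes with a negative fold change, while no gene was removed from the pan-neuronal sum. The planned X-box search was not run. Low counts, down to 1 to 3 per BW25113 library for *ift-20*, limit the precision of the genes with the fewest counts.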

Other observations

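Several abundant transcripts of other lists of ciliated cells had small changes, and all were chosen after their values were seen. *xbx-6*, a gene with an X-box, had 106 to 133 CPM (median 123) in Δ*lpp*-fed worms, against 95.5 to 152 CPM (median 130) in BW25113-fed worms, a log2 fold change of -0.10 with overlapping groups. *odr-4*, which encodes a membrane protein needed to deliver odorant receptors to cilia, had 59.1 to 80.3 CPM (median 69.9) in Δ*lpp*-fed worms, against 68.9 to 96.2 CPM (median 84.8) in BW25113-fed worms. Its log2 fold change was -0.25, and the groups overlapped. Together with *nphp-1*, *arl-13* and *tctn-1*, these were the genes of the cilium and sensory lists above 50 CPM.

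In body wall muscle *tnt-2* (troponin T, log2 fold change -1.79) and *unc-54* (myosin heavy chain, -1.74) fell furthest, and *act-4* (actin, -1.32) and *unc-22* (twitchin, -1.20) least among those called. In the epidermis *bli-1* (-7.0) and *dpy-13* (-3.85) fell furthest, and *col-19* (-3.0) and *rol-6* (-2.60) least, all of them cuticle collagens. In sperm *gsp-3* (-5.93) and *gsp-4* (-5.70), a pair of sperm phosphatases, fell furthest, and *spe-15* (-2.30) and *spe-10* (-1.73) least. In the intestine *act-5* (the microvillar actin, -1.44) and *asp-1* (an aspartyl protease, -1.17) fell. Genes of these lists that went the other way, not called and chosen after their values were seen, included intestinal *vit-2* (0.82), *vit-5* (0.55) and *vit-6* (0.25). In the epidermis they were *elt-1* (0.63) and *lin-26* (0.29). The intestine list summed to 10216 to 14559 TPM in Δ*lpp*-fed worms and 7243 to 9759 TPM in BW25113-fed worms. In the germline *glh-1* (a P granule helicase, -1.51) fell. Higher in Δ*lpp*-fed worms were *perm-4* of the eggshell (1.07) and the early embryonic genes *vet-2* (1.18), *tbx-37* (1.05) and *pes-10* (1.02). The groups did not overlap for *perm-4* but did for each of the early embryonic genes.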
